A study of Rattus norvegicus with 12 samples.

Results

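The bone morphogenetic protein (BMP) pathway and its Id target genes were followed through 10 genes: the ligands Bmp2, Bmp4 and Bmp6, the receptors Bmpr1a and Bmpr2, the intracellular inhibitor Smad6, and Id1, Id2, Id3 and Id4. Every probe set of the array whose annotation gives exactly 1 gene symbol, and whose symbol is one of these, was taken. This gave 22 probe sets for 10 of the 14217 genes with 1 symbol. Of the 22, 17 were bright enough to test, at least 1 for each gene.

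RNA came from Wistar rats and was hybridised to 12 Affymetrix arrays, 3 in each of 4 groups. The groups were adult semilunar valve, neonatal semilunar valve, adult proximal aorta and neonatal proximal aorta. Valve samples hold both the aortic and the pulmonary valve, adult samples are labelled male, and neonatal tissue was taken within 24 h of birth, with no sex given. The labels name no treatment and no engineered allele in any group. The labels do not say whether animals were pooled or whether replicates came from separate animals, and the p-values therefore reflect no more than the spread among these arrays.

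Values are MAS5 signals, the brightness of a probe set on a linear scale after the array was scaled to a common trimmed mean. Differences are in log2 with their standard error (SE), and a probe set was called at a limma adjusted p under 0.05 over all 18552 probe sets tested. In whole tissue, fewer cells of a type and less RNA per cell cannot be told apart. With 3 arrays a group, precision is limited by their number.

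BMP ligands are secreted dimers that bring type I receptors such as Bmpr1a together with the type II receptor Bmpr2. The activated type I receptor phosphorylates Smad1, Smad5 and Smad9, which enter the nucleus with Smad4 and switch on genes that include the Id genes and Smad6. Id proteins pair with basic helix-loop-helix transcription factors and keep them from binding DNA, and in the developing heart BMP signals take part in forming the outflow tract and the cushions from which valves arise.

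Several facts of the arrays touch the values below. In 6 samples the labels conflict: the arrays titled adult aorta carry the tissue entry of neonatal valve, and those titled neonatal valve that of adult aorta. Groups follow the title, which the source name matches. Igf2, a fetal growth factor, had signals of 339 to 879 on the arrays titled adult aorta and 6189 to 8898 on those titled neonatal valve. The 3' to 5' signal ratio of beta-actin, which rises as transcripts are covered less evenly, was 7.24 to 13.99 on the valve arrays and 1.40 to 2.59 on the aorta arrays. Xist, expressed in female cells, read 10998 to 18362 on valve arrays, adult valves labelled male included, and 5.08 to 297 on aorta arrays. The Y-linked gene Eif2s3y read 1.39 to 134 on valve arrays and 1379 to 2557 on aorta arrays. Sex as read from these genes and tissue therefore cannot be told apart in any valve against aorta difference below. Neonatal aorta 2 and 3 lacked the control RNAs that the other 10 arrays carry, and read 2.52 to 45.2 at their 3' probe sets against 272 to 12306 elsewhere. Signals that low are not distinguishable from those of an RNA that is not there.

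Markers of other cell types also varied. Skeletal muscle and squamous epithelium markers summed to 166735 and 154318 on adult aorta 1, the squamous list reached 75771 on neonatal aorta 2 and 6536 on neonatal aorta 1, against 743 on neonatal aorta 3, and the thymocyte list reached 35394 on neonatal valve 3. Cardiac muscle markers (8 of 9 measured) summed to 85654 to 99691 in neonatal valve and 31835 to 54563 in neonatal aorta. They summed to 4811 to 85298 in adult valve and 229 to 29770 in adult aorta, where the highest sum is nearly all Myl3, at 29462 on adult aorta 1, and the other 2 arrays were at 229 and 303. Smooth muscle markers (8 of 8) summed to 8027 to 56639 in adult valve, 14056 to 20166 in neonatal valve, 40886 to 154650 in adult aorta and 38114 to 55917 in neonatal aorta. Endothelial markers (8 of 9) were at 12311 to 35977 in adult valve, 8943 to 13552 in neonatal valve, 4581 to 9697 in adult aorta and 10817 to 13830 in neonatal aorta. Adipocyte markers (7 of 7) were at 3358 to 8742, 3156 to 5328, 8227 to 85207 and 30039 to 51669 in the same groups. Some single markers read at the level of an absent RNA, such as Tnnt2 at 2.15 and Myh7 at 4.38 on adult aorta 3. The part of tissue make-up in the results below was not tested.

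Of the members, 8 had a promoter entry in RefSeq (build GRCr8), all but Bmp2 and Smad6. Those of Id1, Id2 and Id3, the 3 Id genes whose tested probe sets were all called lower in neonatal valve than in neonatal aorta, are shown as regulatory sequence of the pathway's outputs. Each is the stretch just before the annotated start of the gene, 5' to 3' on the gene's own strand: Id1 at chr3:161671314-161671524 (plus strand, 211 bases), Id2 at chr6:47470996-47471245 (minus strand, 250 bases) and Id3 at chr5:153656041-153656252 (plus strand, 212 bases). For Id2 the call on 1368870_at was partly built in, as that probe set was bright enough to test through aorta arrays alone. The other Id2 probe set, 1375532_at, was bright enough through arrays of both tissues. Capitals mark the letters GTCT or AGAC, the core of the Smad binding element, and TATAA, the core of the TATA box.
Id1: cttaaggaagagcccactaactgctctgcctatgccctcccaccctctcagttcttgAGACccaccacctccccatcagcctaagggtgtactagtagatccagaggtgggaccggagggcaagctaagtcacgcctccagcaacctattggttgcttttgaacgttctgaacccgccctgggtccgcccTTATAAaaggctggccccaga
Id2: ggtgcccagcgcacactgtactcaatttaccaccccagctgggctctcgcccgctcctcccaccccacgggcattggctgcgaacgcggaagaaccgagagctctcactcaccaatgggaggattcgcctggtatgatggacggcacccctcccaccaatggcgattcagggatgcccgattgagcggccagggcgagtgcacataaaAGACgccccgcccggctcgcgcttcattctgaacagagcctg
Id3: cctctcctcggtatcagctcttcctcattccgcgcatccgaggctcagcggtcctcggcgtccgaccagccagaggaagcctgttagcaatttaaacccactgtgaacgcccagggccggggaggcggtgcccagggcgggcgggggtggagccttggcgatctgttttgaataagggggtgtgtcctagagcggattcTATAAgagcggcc

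Both strands were searched, and a match is a description of the letters only. GTCT or AGAC occurred 1 time in the Id1 stretch, 1 time in that of Id2 and 0 times in that of Id3, and 84.0% of 33469 rat promoters of 250 bases hold it. TATAA occurred in Id1, where a match on each strand overlaps, and 1 time in Id3, against 24.0% of promoters. GGCGCC, the GC-rich element to which BMP Smads bind, occurred in none of the 3 stretches and in 8.69% of promoters. The shares are of full windows of 250 bases, while the Id1 and Id3 stretches were cut at the annotated start of the gene. Nothing about Smad binding is read from these letters.

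By limma, members were called between the tissues at both ages and with age in the aorta, and none with age in the valve. Members were chosen with earlier results of these data known, so their shares beside those of all probe sets are descriptions only. Between neonatal valve and neonatal aorta, 11 of 17 tested probe sets were called (64.7%), 2 higher and 9 lower in the valve, where 32.6% of all tested probe sets were called (13.3% higher and 19.3% lower). Those lower belonged to Id1, Id2, Id3, Id4, Smad6 and Bmp6, and those higher to Bmp2 and Bmpr2. Between adult valve and adult aorta 8 were called (47.1%), 4 higher and 4 lower, beside 37.1% of all (17.3% higher and 19.9% lower). These counts include 5 probe sets that passed the filter on low signals through 1 tissue alone, so that a tissue difference was built in: Bmp2 1368945_at through valve arrays, and Id2 1368870_at, Smad6 1375121_at, Id4 1375120_at and Id4 1385923_at through aorta arrays. Among the 12 that passed through arrays of both tissues, 7 were called in the neonate, 2 higher and 5 lower (58.3%), beside 28.3% of the 16583 probe sets of that kind (13.4% higher and 15% lower). In the adult 4 of the 12 were called, 3 higher and 1 lower (33.3%), beside 33.1% (17.7% higher and 15.4% lower). With age the share called was 17.6% in the aorta, 3 probe sets all lower in the adult, beside 7.31% of all (1.94% higher and 5.37% lower). In the valve it was 0 of 17, beside 9.21% of all (4% higher and 5.21% lower). Without adult aorta 1 and neonatal aorta 2, the arrays with the highest squamous markers (neonatal aorta 1 was kept), the counts were 10 between neonatal and 10 between adult tissues, 1 by age in the aorta and 0 by age in the valve. Grouping the arrays by description exchanges adult aorta and neonatal valve, and the comparisons of the same names then had 3, 0, 11 and 8 calls.

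**Figure D1:**
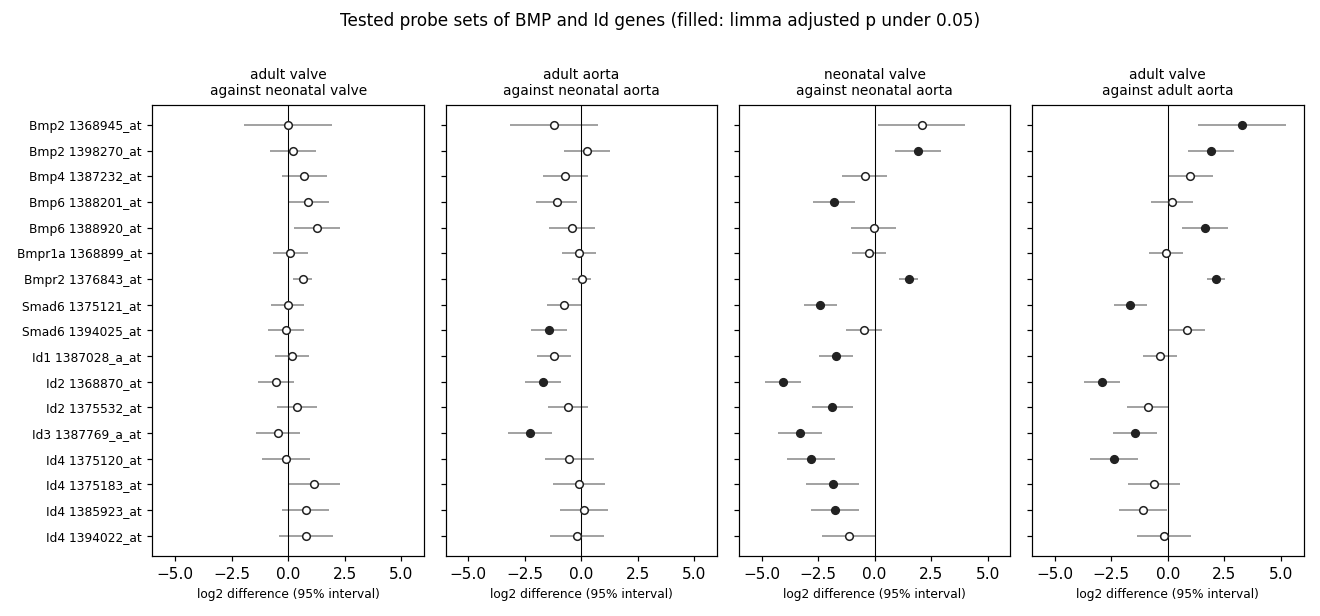
Log2 difference (x axis) of each tested probe set (rows) in 4 comparisons (panels), with 95% intervals; filled points passed a limma adjusted p under 0.05. Filled points lie mostly left of 0 for the Id genes in the comparison of neonatal valve with neonatal aorta, and the panel of adult against neonatal valve has none.

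Bmp2, a ligand with roles in cushion formation and calcification, was higher in valve than in aorta at both ages. Its probe set 1398270_at had signals of 571, 1011 and 2187 on the adult valve arrays and 906, 832 and 1036 on the neonatal valve arrays, against 163, 300 and 485 in adult aorta and 211, 264 and 261 in neonatal aorta. All 6 valve arrays lay above all 6 aorta arrays. The valve was higher by 1.91 ± 0.47 (SE) in log2 both in the neonate (limma adjusted p = 0.00946) and in the adult (0.00854). Age moved the signal by 0.23 ± 0.47 in the valve and 0.23 ± 0.47 in the aorta (adjusted p = 0.796 and 0.812). With only the arrays of the groups compared, the adult tissue difference was not called (limma adjusted p = 0.0614). With the presence of control RNAs as a block the neonatal difference was 2.12 with an adjusted p of 0.0875, since it then rests on 1 neonatal aorta array.

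The second Bmp2 probe set, 1368945_at, passed the filter on low signals through valve arrays alone. A higher signal on some valve arrays was thus built in, though not a call at each age. It read 125, 242 and 330 in adult valve and 130, 231 and 346 in neonatal valve, against 48.8, 3.97 and 56.2 in adult aorta and 66.1, 42.3 and 49.5 in neonatal aorta. Several of the aorta signals are at or near the level of an absent RNA, so its log2 difference of 3.28 ± 0.88 between the adult tissues (adjusted p = 0.0139) is not an exact fold. Without adult aorta 2, the array at 3.97, it was 2.04, and with signals under 32 set at 32 it was 2.28, called in both cases. With only the arrays of the groups compared it was not called (limma adjusted p = 0.0729).

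Bmp4, a ligand of outflow tract and vessel wall, was not called in any comparison. It read 549, 1170 and 1915 in adult valve, 795, 615 and 580 in neonatal valve, 353, 795 and 560 in adult aorta and 743, 677 and 1385 in neonatal aorta, and every pair of groups overlapped. The widest difference was 0.99 ± 0.45 between adult valve and adult aorta, with an interval reaching up to 1.99 (adjusted p = 0.107). It was called with each array centred on its median (1.38, adjusted p = 0.0247).

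Bmp6, a ligand made by endothelium among other cells, had 2 tested probe sets that gave different pictures. On 1388201_at the signals were 221, 564 and 428 in adult valve, 252, 142 and 232 in neonatal valve, 391, 506 and 185 in adult aorta and 719, 695 and 710 in neonatal aorta. Neonatal aorta stood above every other array, and neonatal valve was lower than it by a log2 difference of -1.81 ± 0.42 (adjusted p = 0.00755). With the presence of control RNAs as a block the adjusted p was 0.101, at a difference of -1.83. On 1388920_at the signals were 961, 2414 and 2742 in adult valve, 1091, 404 and 1023 in neonatal valve, 596, 836 and 412 in adult aorta and 752, 773 and 851 in neonatal aorta. Here adult valve stood above adult aorta by 1.65 ± 0.46 (adjusted p = 0.0161), while the neonatal tissues differed by -0.04 ± 0.46. That call was lost without adult aorta 3, adult valve 2 or adult valve 3 (values of 1.37 to 2.12 over the arrays left out). The other Bmp6 probe sets, 1378427_at and 1378827_at, were too dim to test.

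Bmpr1a, a type I receptor, was not called in any comparison. It read 1053, 854 and 824 in adult valve, 1144, 871 and 604 in neonatal valve, 529, 1143 and 1421 in adult aorta and 1045, 944 and 1050 in neonatal aorta. All groups overlapped, and its 4 differences ran from -0.26 to 0.10, each with an SE of 0.35. The interval of the comparison between neonatal tissues, -1.02 to 0.50, still allows a change of 1 in log2.

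Bmpr2, the type II receptor mutated in heritable pulmonary arterial hypertension in humans, was the receptor that differed. Probe set 1376843_at had 3074, 2627 and 3678 in adult valve and 1971, 1842 and 2174 in neonatal valve, against 658, 661 and 811 in adult aorta and 774, 699 and 640 in neonatal aorta. The order was adult valve, neonatal valve, then the 2 aorta groups, which overlapped. The valve was higher by 2.13 ± 0.19 in the adult (limma adjusted p = 4.85e-05) and by 1.50 ± 0.19 in the neonate (adjusted p = 0.000288). Adult valve was above neonatal valve without overlap, by 0.64 ± 0.19, but missed the threshold (adjusted p = 0.0569), and it passed without adult valve 2 or with array weights. In the aorta the age difference was 0.01 ± 0.19, with an interval of -0.40 to 0.42. The dim probe set 1394667_at was not tested and read at most 167. Its estimates had the opposite sign between the tissues. They were -2.58 ± 0.85 in the neonate, with no overlap, and -1.25 ± 0.85 in the adult, with overlap. Its valve signals of 4.02 to 55.3 were mostly at the level of an absent RNA.

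**Figure D2:**
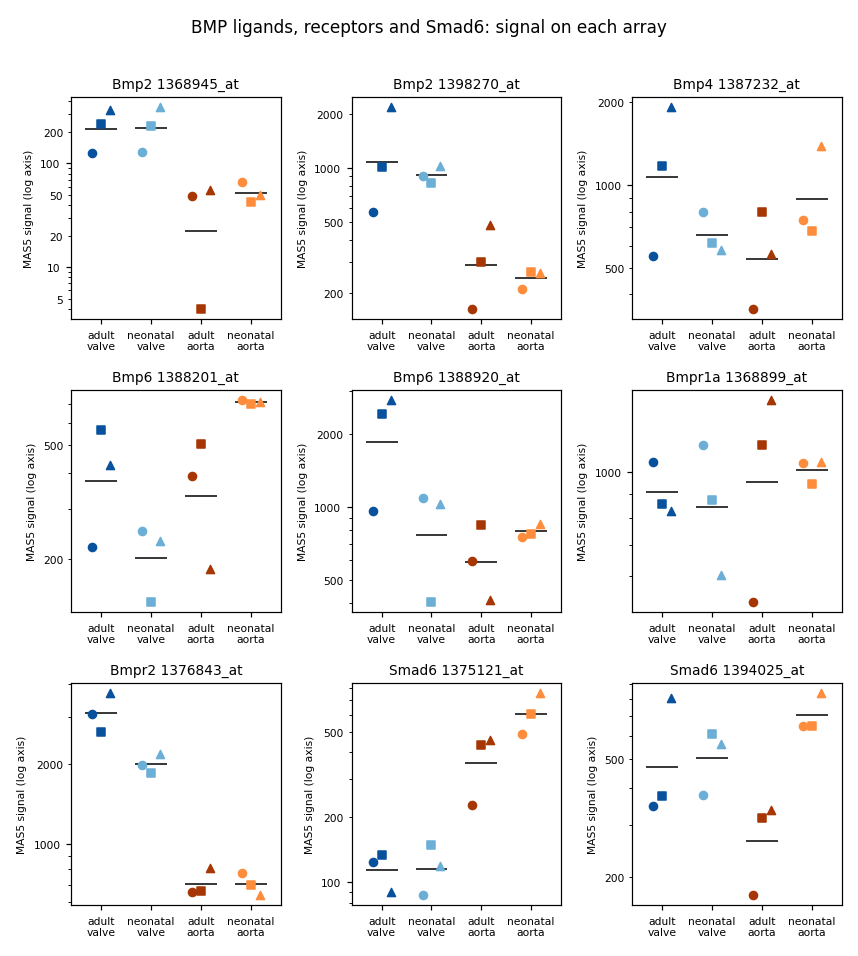
MAS5 signal (log axis) of the tested probe sets of ligands, receptors and Smad6 on each array, by group; circle, square and triangle are replicates 1, 2 and 3, and the bar is the geometric mean of the group. Bmpr2 shows the valve arrays at 1842 to 3678 above the aorta arrays at 640 to 811, and Bmp2 1398270_at separates the tissues in the same direction.

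Smad6, an inhibitor that BMP signalling induces and that is abundant in outflow tract, valves and endothelium in the mouse, depended on the probe set read. On 1375121_at the signals were 123, 133 and 89.4 in adult valve, 86.8, 148 and 118 in neonatal valve, 228, 435 and 456 in adult aorta and 487, 607 and 755 in neonatal aorta. This probe set passed the filter on low signals through aorta arrays alone, so a tissue difference was built in. The valve arrays were all lower than the aorta arrays, with differences of -2.40 ± 0.33 in the neonate (adjusted p = 0.00051) and -1.65 ± 0.33 in the adult (adjusted p = 0.00326). On 1394025_at they were 348, 376 and 807 in adult valve, 379, 612 and 563 in neonatal valve, 173, 316 and 336 in adult aorta and 648, 652 and 839 in neonatal aorta. There adult aorta was the lowest group, below neonatal aorta without overlap, by -1.42 ± 0.36 (limma adjusted p = 0.0385). That call was lost without any 1 neonatal aorta array, without adult aorta 1 or 2 (-1.60 to -1.12 over the arrays left out) and with the presence of control RNAs as a block (-1.30, adjusted p = 0.41). The same probe set put adult valve above adult aorta by 0.84 ± 0.36 (adjusted p = 0.0905), opposite in sign to the other. That difference was called with each array centred on its median (1.23, adjusted p = 0.0108), with quantile normalization and with the replicate number as a block. Probe sets 1377467_at and 1385928_at were too dim to test.

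Id1, the Id gene most used as a readout of BMP activity in endothelium, was highest in neonatal aorta. It read 993, 1143 and 1706 in adult valve and 1100, 989 and 1242 in neonatal valve, against 1161, 2946 and 1169 in adult aorta and 4074, 3297 and 3559 in neonatal aorta. All 3 neonatal aorta arrays lay above the other 9, whose groups overlapped one another. Neonatal valve was lower than neonatal aorta by a log2 difference of -1.71 ± 0.34 (limma adjusted p = 0.00348), or -1.88 with an adjusted p of 0.0502 with the presence of control RNAs as a block. Adult aorta differed from neonatal aorta by -1.19 ± 0.34 (adjusted p = 0.059), which passed without adult aorta 2, the array at 2946, at -1.64, and with quantile normalization, at -1.21.

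Id2, which is expressed in the second heart field and neural crest and is induced by BMP, was lower in valve on both of its probe sets in the neonate. On 1375532_at the signals were 2024, 2194 and 2714 in adult valve, 2216, 1485 and 1626 in neonatal valve, 1878, 5705 and 7147 in adult aorta and 5645, 6239 and 7356 in neonatal aorta. The neonatal tissues were apart by -1.87 ± 0.41 (adjusted p = 0.00548). Adult aorta 1, the array rich in skeletal muscle and squamous markers, lay at 1878, among the valve arrays, and the adult tissue difference of -0.89 ± 0.41 (adjusted p = 0.107) was called without it, at -1.48. Adult and neonatal aorta overlapped, with an age difference of -0.59 ± 0.41 (adjusted p = 0.428), or 0.0024 without adult aorta 1.

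On the second Id2 probe set, 1368870_at, the signals were 63.2, 49.8 and 105 in adult valve, 118, 81.0 and 107 in neonatal valve, 300, 700 and 673 in adult aorta and 1754, 1492 and 1793 in neonatal aorta. The 2 valve groups overlapped, adult aorta lay above both, and neonatal aorta lay highest with no overlap. The filter on low signals was passed through aorta arrays alone, so a higher signal on some aorta arrays was built in, though not a call at each age. The valve was lower by -4.06 ± 0.37 in the neonate (limma adjusted p = 5.14e-05) and by -2.91 ± 0.37 in the adult (adjusted p = 0.000268). In the aorta the adult was lower by -1.69 ± 0.37 (adjusted p = 0.02), and that call was lost without any 1 of the neonatal aorta arrays (-1.90 to -1.29 over the arrays left out). With the presence of control RNAs as a block that difference was -1.75 (adjusted p = 0.252).

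Id3, which acts beside Id1 in endothelium and heart cushions in the mouse, had the widest difference with age among the members. It read 784, 1430 and 728 in adult valve and 1023, 1469 and 1381 in neonatal valve, against 1142, 3263 and 4606 in adult aorta and 13947, 10733 and 12733 in neonatal aorta. Neonatal aorta stood apart from every other array, and adult aorta 1 lay within the range of the valve arrays. Adult aorta fell by 2.26 ± 0.44 in log2 against neonatal aorta, a 4.81-fold difference (limma adjusted p = 0.013). The call was lost without neonatal aorta 1 or 3, and without adult aorta 1, the array with the lowest signal of the adult aorta, the difference was -1.68 and still called. With the presence of control RNAs as a block it was -2.43 with an adjusted p of 0.186.

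Between tissues, Id3 was lower in neonatal valve than in neonatal aorta by -3.28 ± 0.44, a 9.72-fold difference (limma adjusted p = 0.000437). In the adult the difference was -1.47 ± 0.44 (adjusted p = 0.0236), with overlapping arrays, and -2.05 without adult aorta 1. That adult call was lost without adult aorta 2, adult aorta 3, adult valve 1 or adult valve 3, and with each array centred on its median (-1.08, adjusted p = 0.065). In the valve the age difference was -0.45 ± 0.44, with an interval of -1.42 to 0.52 (adjusted p = 0.564).

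Id4, the family member best known from neural precursors, was measured by 4 tested probe sets that were lower in neonatal valve on every one, 3 of them with a call. On the brightest, 1394022_at, the signals were 3234, 1622 and 790 in adult valve, 991, 1166 and 707 in neonatal valve, 815, 2597 and 2850 in adult aorta and 2317, 1568 and 2468 in neonatal aorta. Neonatal valve lay below neonatal aorta without overlap, by -1.15 ± 0.54 (adjusted p = 0.126), and the adult tissues overlapped (-0.18 ± 0.54). On 1375120_at the signals were 137, 136 and 36.8 in adult valve, 72.9, 132 and 86.2 in neonatal valve, 295, 551 and 592 in adult aorta and 624, 666 and 693 in neonatal aorta.

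Both 1375120_at and 1385923_at passed the filter on low signals through aorta arrays alone. Valve signals below those of some aorta arrays were thus built in for them, though not a call at each age. All valve arrays were below all aorta arrays on 1375120_at, with differences of -2.81 ± 0.49 in the neonate (adjusted p = 0.00165) and -2.38 ± 0.49 in the adult (adjusted p = 0.00349, and -1.75 without adult valve 3, the array at 36.8). The remaining Id4 probe sets, 1375183_at and 1385923_at, differed between the neonatal tissues by -1.86 ± 0.53 (adjusted p = 0.0198) and -1.75 ± 0.48 (adjusted p = 0.0165). Each of these calls was lost without neonatal aorta 2, neonatal aorta 3 or neonatal valve 3, and the first also without neonatal valve 2. Their differences were -1.18 and -1.24 with the presence of control RNAs as a block, and neither was called. Their signals were 140 to 466 and 62.2 to 149 in adult valve, 81.5 to 121 and 42.6 to 78.7 in neonatal valve, 192 to 534 and 115 to 319 in adult aorta, and 215 to 519 and 133 to 230 in neonatal aorta. The adult tissues overlapped on both, though 1385923_at was called lower in adult valve without adult aorta 1 (-1.51).

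**Figure D3:**
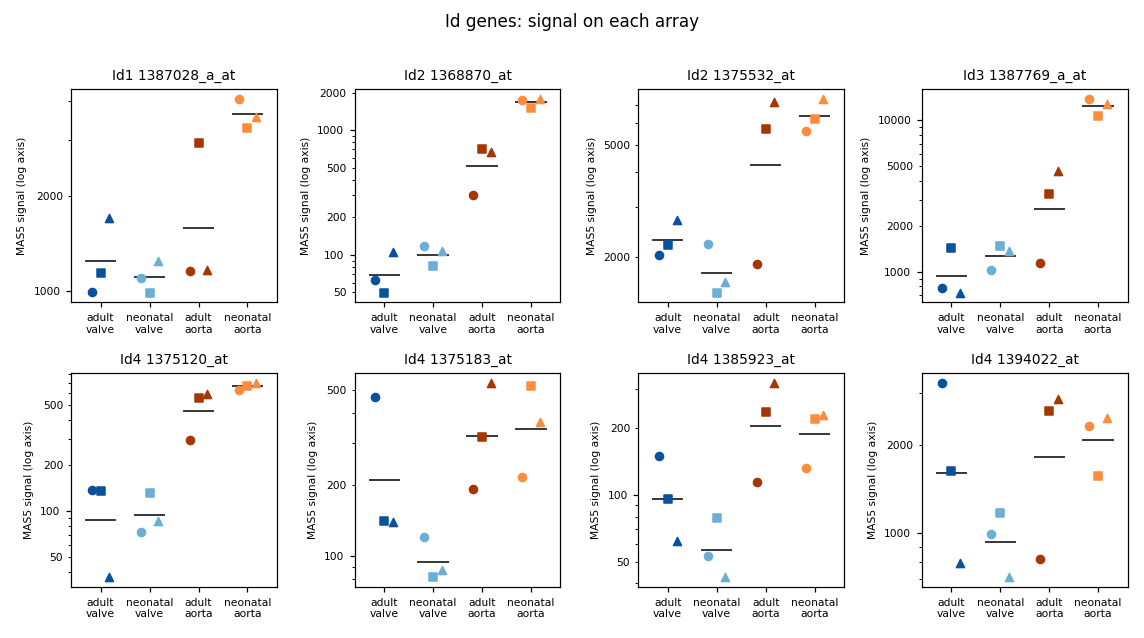
MAS5 signal (log axis) of the tested probe sets of the Id genes on each array, by group; circle, square and triangle are replicates 1, 2 and 3, and the bar is the geometric mean of the group. Id3 and Id1 show the neonatal aorta arrays (10733 to 13947 and 3297 to 4074) above all others, and adult aorta 1 lies at or near the valve arrays for Id2 1375532_at and Id3.

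Counted together, the members leaned one way with age in the aorta. They were chosen with earlier results of these data known, so the shares describe these members and are no test of the set. Their probe sets are not independent, as several are of the same gene and all share the same arrays. Of the 17 tested probe sets, 7 were lower in adult aorta with no overlap (41.2%), against 20.2% of all tested probe sets. None was higher with no overlap, where 10.7% of all were. Their median difference was -0.59, against -0.08 over all tested probe sets, and -0.48 over all 22, tested or not, against 0.06 over the whole array. The 3 called were Id3, Id2 1368870_at and Smad6 1394025_at, and an unadjusted p under 0.05 was reached by 6 (35.3%, against 23.4% of all). Without neonatal aorta 1 or 3 no member was called, and without neonatal aorta 2 Id3 was the 1 called. With the presence of control RNAs as a block, which leaves 1 neonatal aorta array beside the 3 of adult aorta, the count was 0, beside 69 of all probe sets.

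In the valve the members moved less clearly with age. By limma 0 of 17 was called, 2 had an unadjusted p under 0.05 (11.8%, against 26.6% of all), and 2 were higher in the adult with no overlap (Bmpr2 1376843_at and Id4 1375183_at, 11.8% against 14.9% of all), while none was lower with no overlap, as 18.5% of all were. The median was 0.23, against -0.04 over all tested probe sets, and differences ran from -0.54 to 1.27. An SE of 0.44 at the median leaves room for changes near 1 in log2.

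Whether age acted differently in the 2 tissues was tested directly by subtracting the aorta's age difference from the valve's. By limma 0 of 17 probe sets passed, with adjusted p from 0.237 to 0.999, and 0.0593% of all tested probe sets did. The median estimate was 1.14, against 0.06 over all tested probe sets. An unadjusted p under 0.05 was reached by 8 probe sets of 7 genes (47.1%, against 11.7% of all). The lowest adjusted p belonged to Bmp6 1388201_at, at 1.99 ± 0.59, and Id3 had 1.82 ± 0.63 (adjusted p = 0.297) and Id1 1.37 ± 0.48 (adjusted p = 0.307). Each probe set of this contrast uses all 4 groups, so the same neonatal aorta arrays enter all of these values.

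Between neonatal valve and neonatal aorta, 11 of 17 probe sets were lower in the valve with no overlap (64.7%, against 33.5% of all), and 3 higher (17.6%, against 26.2%). Of those called, 5 stayed called with the presence of control RNAs as a block, 1 higher and 4 lower, beside 1416 of all probe sets. The median was -1.71, against -0.09 over all tested probe sets, and -1.43 over all 22. Over the 12 probe sets that passed the filter through both tissues it was -0.82, against -0.02 over all of that kind, and 7 of the 12 were lower with no overlap (58.3%, against 29.1%). In the adult tissues 3 were lower with no overlap (17.6%, against 23.2% of all) and 5 higher (29.4%, against 21.1%), with a median of -0.18 against -0.05 overall. All 3 of those lower had passed the filter through aorta arrays alone, and the median of the 12 was 0.06, against 0.03. The valve arrays had lower medians at the same trimmed mean, and centring each array on its median raised every valve minus aorta difference by 0.33 in the neonate and 0.39 in the adult. The members called were then 2 higher and 8 lower in the neonate, and 6 higher and 3 lower in the adult, where all probe sets split into 4072 higher and 2381 lower and into 5308 higher and 2264 lower. Without centring that split was 2461 higher and 3582 lower in the neonate and 3207 higher and 3684 lower in the adult.

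The probe sets compared for Id2, Smad6, Bmp6 and Id4 did not move alike between the tissues. Such ratios were not taken for Bmp2. Its probe sets 1368945_at and 1398270_at were higher in valve by 2.08 and 1.91 in the neonate. In the adult they were higher by 3.28 and 1.91. The log2 ratio of the brighter to the dimmer Id2 probe set within an array was 4.69 to 5.46 in adult valve, 3.93 to 4.23 in neonatal valve, 2.65 to 3.41 in adult aorta and 1.69 to 2.06 in neonatal aorta. For Smad6 the ratio of 1394025_at to 1375121_at was 1.49 to 3.17, 2.05 to 2.25, -0.46 to -0.40 and 0.10 to 0.41 in the same groups. All valve arrays lay above all aorta arrays in both genes.

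The same held for Bmp6, where 1388920_at over 1388201_at was 2.10 to 2.68 in adult valve, 1.51 to 2.14 in neonatal valve, 0.61 to 1.16 in adult aorta and 0.07 to 0.26 in neonatal aorta. For Id4, 1394022_at over 1375120_at was 3.58 to 4.56, 3.04 to 3.77, 1.47 to 2.27 and 1.23 to 1.89. Such ratios show unequal change of the probe sets and do not say which one follows the gene. This was common on the arrays: of 2748 genes with 2 or more tested probe sets, the brightest and the next differed by over 1 in log2 in 51.9% between neonatal tissues and 53.9% between adult tissues, against 7.64% by age in the aorta and 8.88% by age in the valve. The 3' to 5' actin ratio separates the valve arrays from the aorta arrays in the same way, and its part in the tissue differences was not tested. Among the genes with more than 1 tested probe set, Bmp2, Bmp6, Id2 and Id4 had the same sign of the tissue difference on all of them at each age. Smad6 had opposite signs in the adult. For Bmp2, Id2 and Id4 the agreement was partly built in, as 1368945_at, 1368870_at, 1375120_at and 1385923_at passed the filter through 1 tissue alone. For Bmp6 in the neonate the differences were -1.81 ± 0.42 and -0.04 ± 0.46. The values of Id1, Id3 and Bmpr2 rest on 1 tested probe set each.

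**Figure D4:**
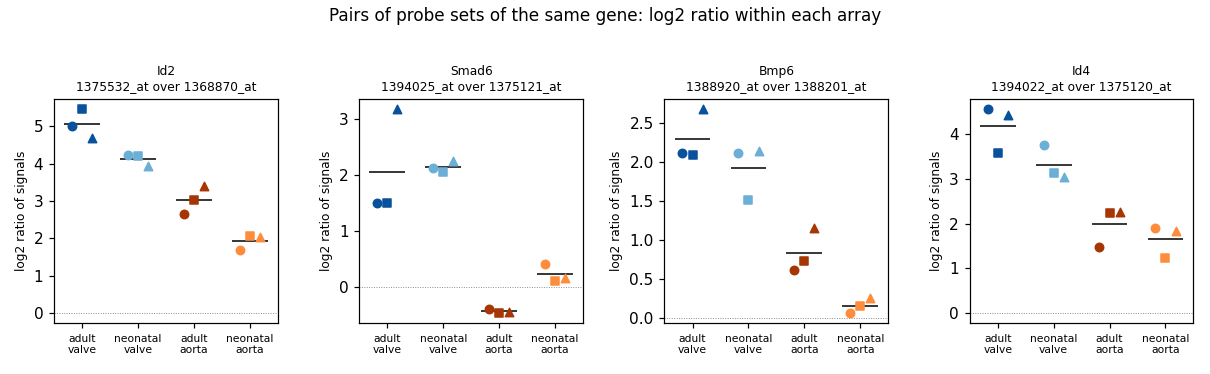
Log2 ratio of the signals of 2 probe sets of one gene (y axis) within each array, by group, for Id2, Smad6, Bmp6 and Id4; points are arrays and bars are group means. In each gene the valve arrays lie above the aorta arrays, for Id2 at 3.93 to 5.46 against 1.69 to 3.41.

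The rest of the pathway was read from lists of 56 other BMP genes and Id partners, of which 47 are on the array with 1 symbol and 38 had their brightest probe set tested. None of the 4 Smad transducers (Smad1, Smad5, Smad9 and Smad4) was called in any of the 5 comparisons by limma. An unadjusted p under 0.05 was reached by Smad1 in the aorta by age, at -0.71 ± 0.26, and by Smad4 between neonatal tissues, at 0.46 ± 0.18. In the aorta 1 of the 38 was called with age, lower in the adult. This was Bmper, a secreted BMP binding protein of endothelium, which read 152, 187 and 130 in adult aorta against 1013, 907 and 687 in neonatal aorta, a difference of -2.47 ± 0.35 (adjusted p = 0.00262). Without adult aorta 1 the count called was 5, and with the presence of control RNAs as a block it was 0.

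By age in the valve 4 of 38 were called, all higher in the adult. Endoglin (Eng), a co-receptor of endothelium, read 811, 2400 and 4000 in adult valve against 518, 504 and 509 in neonatal valve (1.96 ± 0.49, adjusted p = 0.0321). Msx1, a homeobox gene of heart cushions that BMP induces, read 1920, 1299 and 1349 in adult valve against 593, 180 and 400 in neonatal valve (2.10 ± 0.43, adjusted p = 0.0142). Nbl1, a secreted antagonist, and Crim1, a membrane protein that binds BMPs, were higher by 1.70 ± 0.34 and 1.36 ± 0.35. Summed endothelial markers were at 12311 to 35977 in adult valve and 8943 to 13552 in neonatal valve. The median log2 signal of that list overlapped, at 9.66 to 10.89 and 9.63 to 10.38. Within the list Pecam1, Tek and Vwf were higher in adult valve and Kdr and Cldn5 lower, each with no overlap. Tie1, Emcn and Esam overlapped. The count fell to 1 without neonatal valve 1 and to 2 without neonatal valve 3, adult valve 1 or adult valve 3.

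Between neonatal tissues 5 of 38 were called, 3 higher and 2 lower in the valve. The ligand Bmp5 was higher by 2.54 ± 0.59, with 309, 493 and 179 in neonatal valve against 56.8, 38.0 and 64.7 in neonatal aorta, of which 1 lies at the level of an absent RNA, and its probe set passed the filter through valve arrays alone. Smurf2, a ubiquitin ligase of Smads, was higher by 1.13 ± 0.21, and Tcf12, a helix-loop-helix partner of Id proteins, by 1.70 ± 0.34. The antagonists Chrdl2 and Nbl1 were lower, by -1.75 ± 0.40 and -1.45 ± 0.34. Chrdl2 read 22.8, 37.2 and 39.0 in neonatal valve, at the level of an absent RNA, against 115, 108 and 101 in neonatal aorta. Its probe set passed the filter through adult aorta arrays alone. After median centring of the arrays, 8 were higher and 2 lower.

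Between adult tissues 11 of 38 were called, 8 higher and 3 lower in the valve. Those higher were Msx1 (2.58 ± 0.43), Eng (2.46 ± 0.49), Bmper (2.32 ± 0.35), Tcf12 (2.19 ± 0.34), Crim1 (1.72 ± 0.35), Smurf2 (1.67 ± 0.21), the activin and BMP binding protein Fst (1.59 ± 0.33) and Tcf4, another Id partner (1.20 ± 0.28). Those lower were Chrdl2 (-2.54 ± 0.40, on a probe set that passed the filter through adult aorta arrays alone), Tob1, which restrains Smad signalling (-1.19 ± 0.36), and the ubiquitin ligase Smurf1 (-0.68 ± 0.20). After median centring of the arrays, 16 were higher and 1 lower. The share of the 38 called was thus 2.63% by age in the aorta, 10.5% by age in the valve, 13.2% between neonatal tissues and 28.9% between adult tissues, against 7.31%, 9.21%, 32.6% and 37.1% of all tested probe sets. The difference between the age differences was called for 0 of them by limma, with 5 at an unadjusted p under 0.05 (Eng, Fst, Bmper, Crim1 and Msx1).

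**Figure D5:**
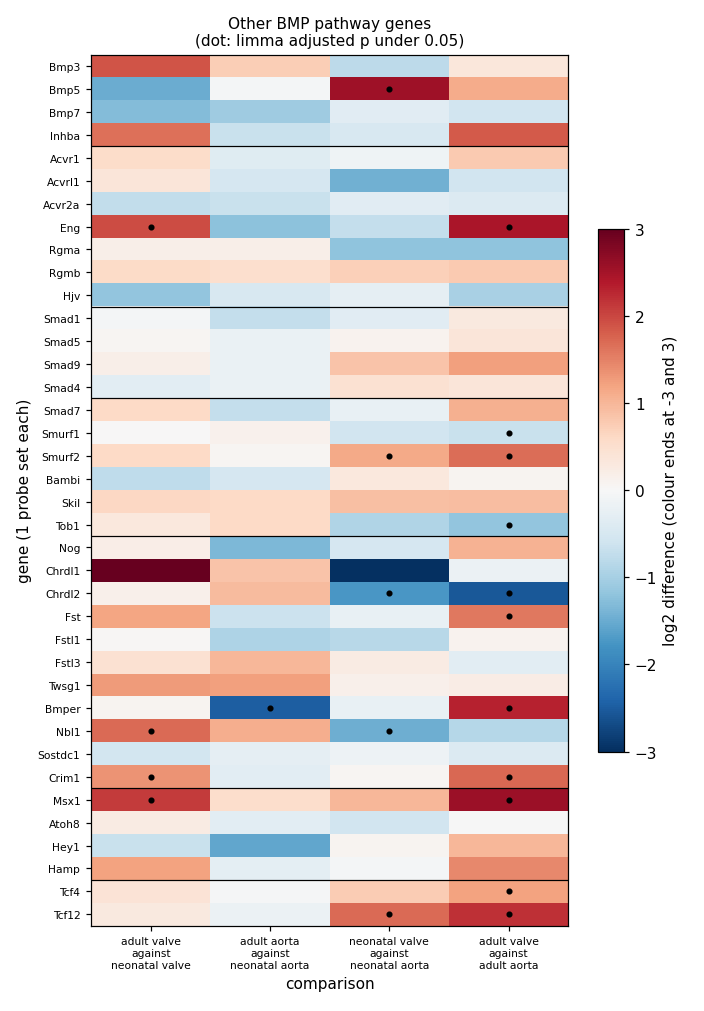
Log2 difference (colour, ending at -3 and 3) of 38 other BMP pathway genes and Id partners (rows, 1 probe set each, lines between lists) in 4 comparisons (columns); a dot marks a limma adjusted p under 0.05. The dots number 4, 1, 5 and 11 from left to right.

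The genes whose pattern over the 12 arrays was most like that of each member were found by the root mean square distance of centred log2 profiles. Id3 lay nearest to Samd11 (0.42) and Tmem120a (0.49), and among members to Id2 (0.91). Id1 lay nearest to Zfp469 (0.26) and Nthl1 (0.28), and Id2 1375532_at to Cnn2 (0.22) and Tinagl1 (0.25), with Id1 and Id2 each other's nearest member at 0.55. Bmpr2 lay nearest to Ap1ar (0.18) and Upf3b (0.19), and Bmp2 1398270_at to Vopp1 (0.31) and Tcf12 (0.33), with Bmp2 and Bmpr2 each other's nearest member at 0.48. Bmp6 1388920_at lay nearest to Icam2 (0.36) and Hhex (0.40), and Smad6 1394025_at to Spaca6 (0.23) and Vash1 (0.27), with Bmp4 the nearest member of both (0.57 and 0.53). Id4 1394022_at, the brightest Id4 probe set, lay nearest to Spsb1 (0.27) and Cavin3 (0.30), and among members to Bmpr1a (0.53). The median distance of these probe sets to all tested probe sets was 0.88 to 1.56.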

How the data were processed

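Biotin-labelled RNA from a T7 transcription reaction was hybridised to Affymetrix arrays. The deposited table holds intensity values, 1 linear signal per probe set and array, which the authors obtained with MAS5 in Affymetrix Expression Console, per the submitters' processing notes. Program versions and the target of the scaling were not given in the sources used here. Trimming 2% from both ends, the mean of an array lay between 500.1 and 500.2.

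Values under 1 were raised to 1 before taking log2, and arrays were not normalized again. Symbols were read from GEO's annotation of the platform (20826 probe sets with 1 symbol, 436 with several and 9780 with none). After removal of 57 control probe sets, 31042 were left, of which 18552 exceeded the median of all values (171.944) on 3 or more of the 12 arrays and were tested. limma 3.58.1 (R 4.3.3) fitted a mean for each group to all arrays, with moderated variances that follow intensity and 8 residual degrees of freedom. Tests were two-sided and adjusted by Benjamini and Hochberg over the tested probe sets. Members were described by every probe set, and other pathway genes and markers by the one with the highest mean. Genes named were all members, each listed pathway gene that was called, and the 2 nearest profiles to the brightest probe set of each member with a call on any probe set. Members and lists were chosen with earlier results of these data known. The code was tested on simulated data. Alternatives changed the scaling, floor, filter, variance model, grouping, replicate number, control RNA block and array weights, or left arrays out.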

Additional observations from a re-analysis of the deposited data

How the results depend on the processing

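Of 22 member differences called, all 22 stayed called in the same direction with signals under 32 set at 32, log2 of the signal plus 32, no intensity trend, array weights and the replicate number as a block. The number that stayed called was 21 without a filter, 20 each with quantile normalization and median centring, 15 with only the arrays compared, 13 with the presence of control RNAs as a block, 10 with only the arrays that hold control RNAs and 4 with groups by description. Grouping by description compares other groups under the same names, and both control RNA settings leave 1 neonatal aorta array to set against other groups. The cause of the other changes was not tested. The settings with only arrays that hold control RNAs and without adult aorta 1 and neonatal aorta 2 together were chosen after seeing the data. Precision is limited by 3 arrays per group, and dim probe sets cannot be told from absent RNA.

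Member counts by age in the aorta, 3 in the report, were 0 with only the arrays compared, with the control RNA block and with only arrays holding control RNAs, 11 with groups by description and 1 without adult aorta 1 and neonatal aorta 2. By age in the valve, 0 in the report, they were 8 by description and 1 with array weights. Between neonatal tissues, 11 in the report, they were 3 by description, 5 with the block and 3 with only arrays holding control RNAs. Between adult tissues, 8 in the report, they were 4 with only the arrays compared and 0 by description. With 1 array left out they ran from 0 to 3 by age in the aorta, 0 to 1 by age in the valve, 9 to 11 between neonatal and 6 to 10 between adult tissues, and 0 for the difference of age differences, which has no value with only the arrays compared.

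Under the grouping by description 4 values changed sign with a call in 1 of both groupings. For Bmp2 1368945_at they were 3.28 (valve by age, now called) and -0.019 (adult tissues, no longer called), and for Id4 1385923_at -1.75 (aorta by age, now called) and 0.12 (neonatal tissues, no longer called).

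Counts of the 38 other pathway genes by age in the aorta, 1 in the report, were 2 with quantile normalization, no filter or no trend, 5 by description, 0 with the block or only arrays holding control RNAs, 10 with array weights and 3 without both arrays named above. By age in the valve, 4 in the report, they were 11, 8, 2 and 7 by description, with weights, with only arrays holding control RNAs and without both arrays. Between neonatal tissues, 5 in the report, they were 10 centred, 3 with the filter at 6 arrays, 16 with only the arrays compared, 1 by description, 0 with the block or only arrays holding control RNAs, 16 with weights and 9 without both arrays. Between adult tissues, 11 in the report, they were 17 centred and 4 by description, and for the difference of age differences, 0 in the report, 2 with weights. With 1 array left out they ran from 1 to 5, 1 to 3, 5 to 7, 9 to 15 and 0 to 1.

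Counts of all probe sets moved by over 1.5 times in these cases. In the aorta by age, 1357 became 811 with only the arrays compared, 6043 by description, 69 with the block, 4763 with weights and 14 with only arrays holding control RNAs. In the valve by age, 1709 became 6891 by description, 2799 with weights and 663 with only arrays holding control RNAs. Between neonatal tissues, 6043 became 1357 by description, 1416 with the block, 9706 with weights and 641 with only arrays holding control RNAs. Between adult tissues, 6891 became 3646 with only the arrays compared and 1709 by description. For the difference of age differences, 11 became 18 with the floor of 32, 4 with the filter at 6 arrays, 7 without a trend, 1 with either block, 165 with weights, 0 with only arrays holding control RNAs and 1 without both arrays. With 1 array left out they ran from 431 to 2485, 662 to 1514, 4101 to 5075, 5692 to 7048 and 1 to 37.

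The titles number the arrays 1 to 3 in every group. Same-numbered arrays deviated from their group means with correlations of -0.31 to 0.24 over 12 pairs, 3 of them over 0.1. Arrays with unequal numbers had -0.29 to 0.39. These values show no pairing by number, but with 3 arrays per group they cannot exclude one. With the replicate number as a block, members called were 3, 0, 11, 9 and 0 in the order of the comparisons above, the added call being Smad6 1394025_at between adult tissues (0.84, adjusted p = 0.0381), and all probe sets called were 1128, 1458, 5720, 6626 and 1.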
